A study of Mus musculus with 13 samples.

Results

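A group of 8 genes of macrophages and microglia was followed through 3 inhibitor treatments of mouse glial cultures: the surface receptor genes Cd300a, Cd300ld3 and Lilr4b, the membrane protease gene Adam8, the lysosomal gene Cd68, and Lyz2, Cfp and Wfdc17, which encode secreted proteins. They are 8 of the 1592 genes found in at least 1 of the 3 tables of changed genes that the authors deposited, and were picked by name with those tables known. Their fold changes are therefore a description of chosen genes, with no test of the set. RNA sequencing was done on 13 samples of primary cultured astrocytes taken at postnatal day 1 to 3 from C57BL/6 retinas and optic nerves, all wild type, grown with 10% serum. Vehicle was given to 4 samples and each of 3 compounds to 3 samples, all for 24 h, and the labels give neither the doses nor the vehicle. SB431542 inhibits the type I receptor kinases that carry TGF-beta and activin signals, and HLM006474 inhibits E2F transcription factors. The remaining compound, called the RUNX1 inhibitor here, acts on RUNX1, a transcription factor, together with its partner CBFB.

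Macrophages and microglia, the resident macrophages of the nervous system, read their surroundings through paired receptors. These are families of closely related surface proteins in which some members carry inhibitory tyrosine motifs that recruit phosphatases, while others signal activation through partner adaptor proteins. The same cells digest what they take up in lysosomes and secrete lysozyme, complement components and protease inhibitors. TGF-beta is known for keeping microglia in their resident state.

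Each gene in the authors' deposited tables has a mean normalised count over libraries and a log2 fold change against vehicle, written here as value ± SE (standard error). A gene stood in a table if its adjusted p was under 0.05 and its log2 fold change was at least 0.58 in size, a 1.50-fold change. Values per sample were not analysed here, so sample overlap is not described and the spread between samples is seen only through these errors. Separate animals or platings are not named in the labels, so that spread may be technical. Of the 12 astrocyte markers examined, Kcnj10, a potassium channel gene, and Fabp7, a fatty acid binding protein gene, had mean counts of 23892.5 and 18965 in the authors' deposited tables, and the other 10 stood in no table. Both were lower with treatment in the authors' deposited tables, Kcnj10 at -0.77 ± 0.037 under SB431542 and Fabp7 at -0.64 ± 0.055 under HLM006474 and -0.67 ± 0.055 under the RUNX1 inhibitor. The myeloid genes were thus measured in a culture that also held abundant astrocyte transcripts, and the cell that made each transcript was not identified. In bulk RNA, fewer cells of a type and less RNA per cell cannot be told apart.

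All 8 genes were higher under SB431542, 4 were higher under HLM006474 and 2 under the RUNX1 inhibitor, and none was lower. Among all genes tested, 2.29% were listed as higher for SB431542, 1.42% for HLM006474 and 0.605% for the RUNX1 inhibitor, and since the same comparisons chose the genes, nothing is read from the contrast. In the authors' deposited table for SB431542 the 8 log2 fold changes ran from 0.65 for Lyz2 to 2.35 for Wfdc17, with a median of 1.62, against a median of 0.93 over all 347 genes listed as higher. Wfdc17 had the 20th largest rise of those 347, and Lyz2 was 296th. Adam8 and Lilr4b had the 17th and 18th smallest p-values of the 15169 genes tested for SB431542, computed from the authors' deposited table. The 3 comparisons share their vehicle samples, so the values of a gene under different compounds are not independent.

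**Figure D1:**
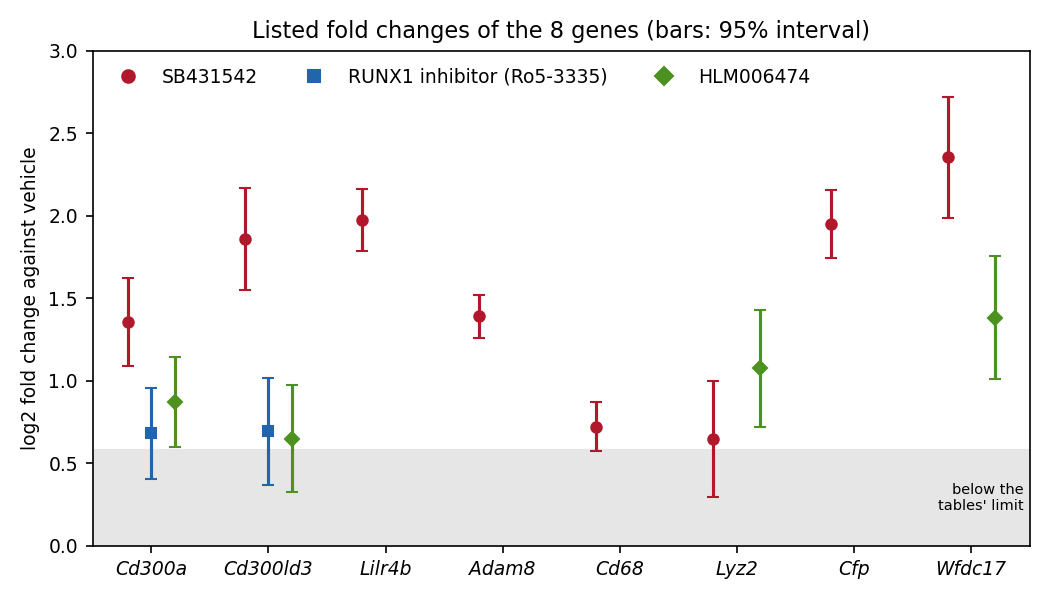
Log2 fold change against vehicle (vertical axis) of each gene under each compound that lists it; points are the authors' estimates, bars the 95% interval, and the grey band lies below the limit of the tables. SB431542 has a point for all 8 genes, HLM006474 for 4 and the RUNX1 inhibitor for 2, and Lyz2 is the gene whose HLM006474 point lies above its SB431542 point.

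Among the receptors, Cd300a and Cd300ld3 were higher under all 3 compounds. Cd300a (ENSMUSG00000034652.12, chr11:114890041-114904654, plus strand, GRCm38) encodes an inhibitory receptor that recognises phospholipids exposed on dying cells. In the authors' deposited tables it stood at 1.35 ± 0.14 under SB431542, 0.87 ± 0.14 under HLM006474 and 0.68 ± 0.14 under the RUNX1 inhibitor. Because this gene is in every table, its mean in each group can be estimated from its mean count and fold changes. The estimated mean normalised counts were 138 in vehicle, 221 under the RUNX1 inhibitor, 253 under HLM006474 and 353 under SB431542. The difference between SB431542 and HLM006474 was 0.48 on the log2 scale, with a 95% interval from 0.10 to 0.86. Between HLM006474 and the RUNX1 inhibitor it was 0.19, with an interval from -0.20 to 0.58 that includes 0. These intervals count the shared vehicle samples as separate and are too wide for it.

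Cd300ld3 (ENSMUSG00000069607.4, chr11:115042131-115048409, minus strand) encodes another receptor of the CD300 family. In the authors' deposited tables it stood at 1.86 ± 0.16 under SB431542, 0.65 ± 0.17 under HLM006474 and 0.69 ± 0.17 under the RUNX1 inhibitor. Its estimated mean normalised counts were 106 in vehicle, 167 under HLM006474, 172 under the RUNX1 inhibitor and 386 under SB431542. SB431542 stood above HLM006474 by 1.21 (95% interval 0.76 to 1.66) and above the RUNX1 inhibitor by 1.16 (0.72 to 1.61) on the log2 scale. HLM006474 minus the RUNX1 inhibitor was -0.05, with an interval from -0.51 to 0.41. SB431542 thus stood apart from the other compounds for Cd300ld3. For Cd300a it also stood above both, by 0.48 over HLM006474 and by 0.67 (0.29 to 1.06) over the RUNX1 inhibitor. Whether the pattern differed between these genes was not tested.

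Both genes belong to a cluster of 11 coding CD300 genes spread over 244 kb of chromosome 11. Of these 11, 4 were listed as higher for SB431542, 3 for HLM006474 and 2 for the RUNX1 inhibitor. Cd300lb, an activating member that signals through the adaptor Tyrobp, lies 18.1 kb from Cd300a. It stood at 1.60 ± 0.14 under SB431542 and 0.86 ± 0.14 under HLM006474 in the authors' deposited tables. Cd300ld, 52.2 kb from Cd300ld3, stood at 2.07 ± 0.17 in the authors' deposited table for SB431542 alone. The listed part of the cluster therefore held both an inhibitory and an activating receptor, all with positive fold changes, and the other 7 genes were in no table. Little transcript sequence was common to Cd300ld3 and Cd300ld: 1.99% of the 50-base words of the Cd300ld3 transcript, and none of its 100-base words, occurred in Cd300ld transcripts. Sequence shared with the 7 cluster genes in no table was not examined, so reads shared with them cannot be judged.

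The sequences before the starts of Cd300a and Cd300ld3 are shown because these are the 2 genes listed for every compound. Capitals mark GAGGAA or its reverse complement TTCCTC, the core bound by PU.1, the transcription factor that defines myeloid cells. They are from RefSeq on GRCm38.p6, chr11:114889791-114890040 on the plus strand and chr11:115048410-115048580 on the minus strand, each ending where the GENCODE gene model begins.
Cd300a: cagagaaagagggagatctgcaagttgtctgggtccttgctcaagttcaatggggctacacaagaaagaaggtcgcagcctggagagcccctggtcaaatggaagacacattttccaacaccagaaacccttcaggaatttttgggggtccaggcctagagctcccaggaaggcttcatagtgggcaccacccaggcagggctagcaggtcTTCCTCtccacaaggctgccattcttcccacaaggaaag
Cd300ld3: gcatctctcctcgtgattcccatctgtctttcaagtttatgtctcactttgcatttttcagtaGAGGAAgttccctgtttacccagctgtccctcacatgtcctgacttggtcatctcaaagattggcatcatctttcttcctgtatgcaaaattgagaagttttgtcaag

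All 8 genes had a RefSeq start, and the 250 bases before it were searched on both strands. GAGGAA was present for 4 of the 8 (Cd300a, Cd300ld3, Cd68 and Wfdc17), against 23.3% of 32851 promoters of the same length. The Wfdc17 match, at -39 from the RefSeq start, lies inside its GENCODE gene model, which begins 65 bases before that start. CAGACA, a SMAD element, was present for Cd300a and Cd68, against 17.1% of promoters. The AP-1 element TGAGTCA was present for Cd68 alone, against 4.46%, and the E-box CACGTG for none, against 6.02%. None of these motifs contains another. A match describes the letters and is not a bound site.

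Lilr4b (ENSMUSG00000112023.1, chr10:51480632-51486703, plus strand), also called gp49A, lacks the inhibitory motifs of its neighbour Lilrb4a, or gp49B. It stood at 1.97 ± 0.10 under SB431542 in the authors' deposited table, with a mean count of 348. Its error was 0.727 times the median of the 100 listed genes nearest in mean count, and 4 of those 100 had a smaller one. Lilrb4a, which lies 4.25 kb away, stood at 1.64 ± 0.29 in the authors' deposited table for SB431542. Of the Lilr4b transcript, 22.9% of 50-base words and 10.5% of 100-base words also occurred in Lilrb4a transcripts. A gene model that spans both, Gm49339, shares 122 exon bases with Lilr4b, 2.24% of the Lilr4b exon bases. Gm49339 stood at 1.31 ± 0.079 in the authors' deposited table for SB431542. How reads were divided among the 3 is not given in the sources used here, so the value of each one alone is uncertain. Neither Lilr4b nor Lilrb4a was listed for the other compounds.

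The wider list of paired receptors did not move as a block. Of its 44 genes beyond the 3 described, 7 were higher and 4 lower under SB431542, where 4.93% of all genes tested were listed in either direction. The inhibitory Fc receptor gene Fcgr2b stood at 1.39 ± 0.10 in the authors' deposited table for SB431542. Siglec1, a sialic acid receptor gene of macrophages, was lower under SB431542 and HLM006474, at -0.71 ± 0.13 and -0.67 ± 0.13 in the authors' deposited tables. Under HLM006474, where 5.64% of all genes tested were listed, the other receptors with a rise were Cd300lb and the inhibitory receptor gene Pirb, the latter at 0.71 ± 0.15 in the authors' deposited table. Of the 18 adaptor and signalling genes through which such receptors act, 2 were listed for SB431542 and none for the other compounds. Dok2, an adaptor of tyrosine kinase signalling, had a value of 1.76 ± 0.18, and Inpp5d, the lipid phosphatase SHIP1 that inhibitory receptors recruit, at -0.82 ± 0.12, in the authors' deposited table for SB431542. The shared partner genes Tyrobp and Fcer1g were in no table.

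**Figure D2:**
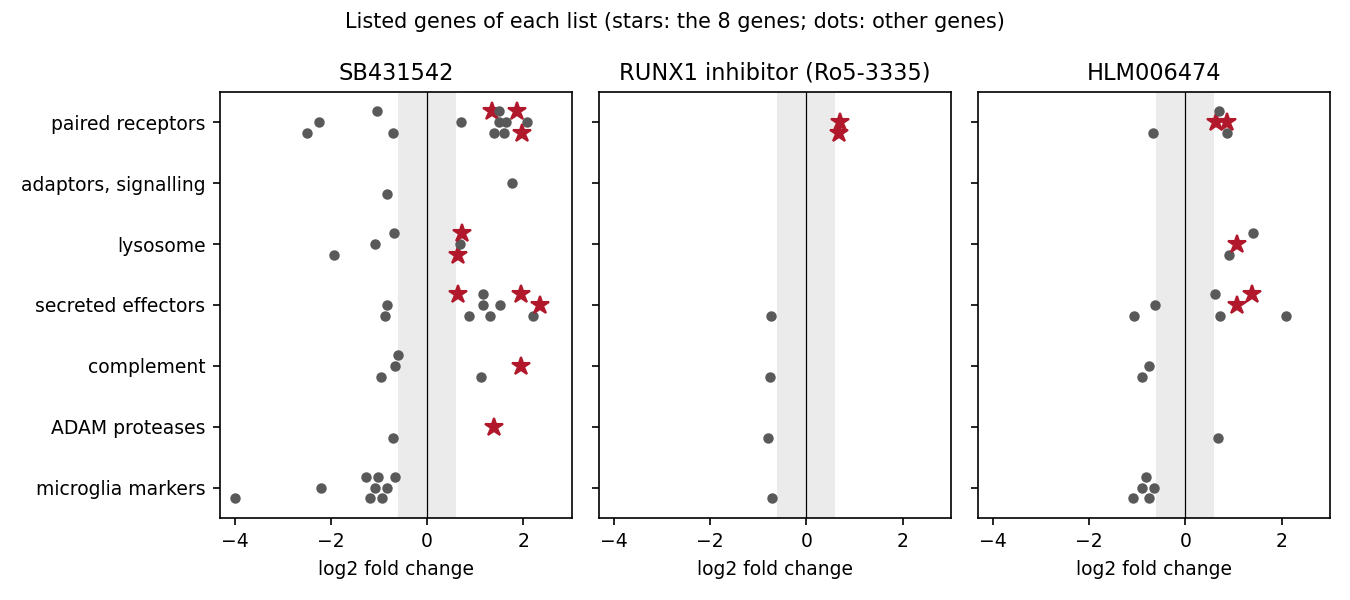
Log2 fold change (horizontal axis) of every listed gene of each list, one panel per compound; stars are the 8 genes, dots the other genes, vertical offsets only separate points, and the grey band lies inside the limits of the tables. Under SB431542 the stars lie on the right of the band while all 9 listed microglia markers lie on its left.

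Adam8 (ENSMUSG00000025473.16, chr7:139978932-139992562, minus strand) encodes a metalloprotease of leukocyte membranes that sheds surface proteins. It stood at 1.39 ± 0.066 in the authors' deposited table for SB431542, a 2.62-fold rise with a 95% interval of 2.40 to 2.87. Its mean count was 1572, and its error was the smallest of the 8. Adam8 was not listed for the other compounds. If it was tested there with a similar error, its log2 fold change lay within 0.58 of 0, which is at least 0.81 below its value under SB431542. Among the 13 other ADAM genes, Adam12, linked to fibroblasts and muscle, was lower under SB431542 and the RUNX1 inhibitor, at -0.70 ± 0.099 and -0.80 ± 0.10 in the authors' deposited tables. Adam23 was higher under HLM006474, at 0.67 ± 0.17 in the authors' deposited table.

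The lysosomal gene Cd68 and the lysozyme gene Lyz2 were the most abundant of the 8 per kilobase of exon and had the smallest rises under SB431542. Cd68 (ENSMUSG00000018774.13, chr11:69664213-69666153, minus strand) encodes a glycosylated lysosomal membrane protein used as a macrophage marker. It stood at 0.72 ± 0.075 in the authors' deposited table for SB431542, with a mean count of 2495, and was not listed for the other compounds. The lower end of its 95% interval was a 1.49-fold rise, at the limit of the table, so whether Cd68 differed between compounds cannot be told from these tables. The 250 bases before its RefSeq start, chr11:69666171-69666420 on the minus strand, are shown because it was the 1 gene with matches to 3 of the motifs, with GAGGAA in capitals.
Cd68: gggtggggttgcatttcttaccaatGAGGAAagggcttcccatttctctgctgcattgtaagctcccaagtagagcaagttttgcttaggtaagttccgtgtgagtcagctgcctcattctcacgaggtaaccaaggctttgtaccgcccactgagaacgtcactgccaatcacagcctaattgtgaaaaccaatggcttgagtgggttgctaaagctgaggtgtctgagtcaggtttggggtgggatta

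Lyz2 (ENSMUSG00000069516.8, chr10:117277331-117282321, minus strand) encodes lysozyme M, which cleaves bacterial cell walls. Its mean count was 24249, and per kilobase of exon its level was 18426 counts, against 1985 for Cd68 and 49.2 to 427 for the other 6. In the authors' deposited tables it stood at 0.65 ± 0.18 under SB431542 and 1.08 ± 0.18 under HLM006474. SB431542 minus HLM006474 was -0.43 on the log2 scale, with a 95% interval from -0.93 to 0.07 that includes 0. The order of the compounds was thus opposite to that of Cd300a, Cd300ld3 and Wfdc17, but within its error.

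The error of Lyz2 was large for so abundant a transcript. It was 2.73 times the median of the 100 listed genes nearest in mean count under SB431542 and 2.65 times under HLM006474, larger than 98 of the 100 in both. Taken at face value it corresponds to a coefficient of variation between samples of 16.4%, against 6.81% for Cd68 and 6.00% for Adam8. Which samples carried that spread was not analysed here. With its near copy Lyz1 it shared 15.4% of 50-base words and 1.97% of 100-base words, so a small part of its reads could be assigned to either, and Lyz1 was in no table.

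**Figure D3:**
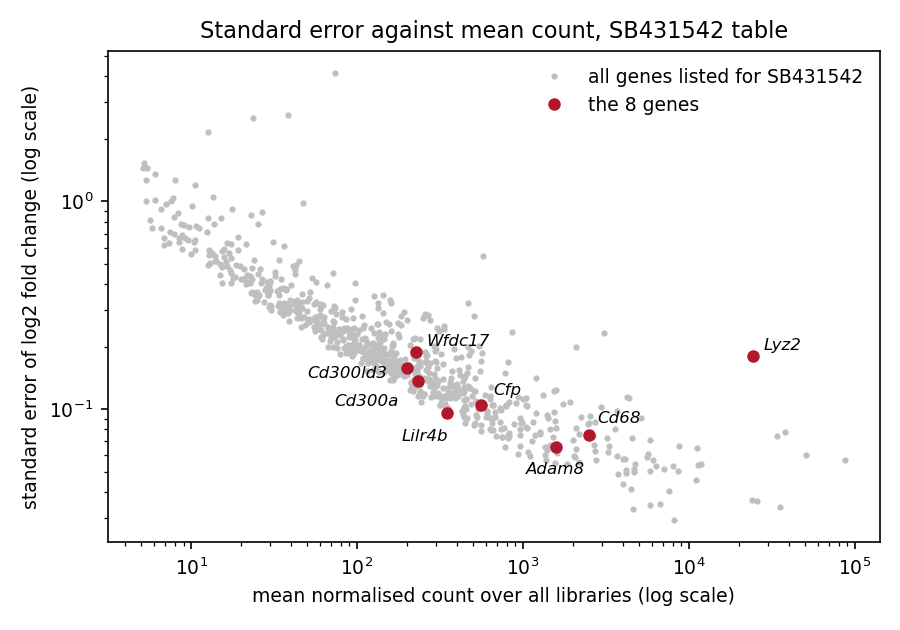
Standard error of the log2 fold change under SB431542 (vertical, log scale) against mean normalised count (horizontal, log scale) for all 748 listed genes in grey and the 8 genes in red. Lyz2, at a mean count of 24249, lies above the band followed by other abundant genes, while the other 7 lie within it.

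Of the 38 other genes on the wider lysosome list, 1 was higher and 3 were lower under SB431542. Under HLM006474, 2 were higher and none was lower. Of all genes tested, 4.93% were listed in either direction for SB431542 and 5.64% for HLM006474. The HLM006474 count is near that share, so nothing is read from it. Lipa, lysosomal acid lipase, stood at 0.69 ± 0.044 under SB431542 and 0.91 ± 0.044 under HLM006474 in the authors' deposited tables. Ctss, the protease cathepsin S, was lower under SB431542, at -0.69 ± 0.054 in the authors' deposited table. Ctse, cathepsin E, stood at -1.94 ± 0.63 in the same authors' deposited table on a mean count of 16.4. Atp6v0d2, a subunit of the proton pump that acidifies lysosomes, stood at 1.42 ± 0.47 in the authors' deposited table for HLM006474, on a mean count of 15.8. For the RUNX1 inhibitor no lysosomal gene was listed, where 2.93% of all genes tested were.

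Cfp (ENSMUSG00000001128.7, chrX:20925454-20931555, minus strand) encodes properdin, which stabilises the enzyme that activates complement C3 by the alternative pathway. It stood at 1.95 ± 0.10 in the authors' deposited table for SB431542, a 3.87-fold rise with a 95% interval of 3.35 to 4.45 on a mean count of 555. It was not listed for the RUNX1 inhibitor or HLM006474, and if tested there it lay at least 1.37 lower on the log2 scale than under SB431542. Of 25 other complement genes, 1 was higher and 3 were lower under SB431542, and the other 21 were not in that table. The receptor gene for the C5a fragment, C5ar1, was the higher one at 1.13 ± 0.078, and C1qa, a chain of the C1q recognition molecule, stood at -0.66 ± 0.052, in the authors' deposited table. C4b was at -0.60 ± 0.073 and C5ar2, the second C5a receptor gene, at -0.96 ± 0.25, in the authors' deposited table. Under HLM006474 no complement gene was higher and 2 were lower, Masp1, a protease of the lectin pathway, at -0.76 ± 0.14 and C5ar2 at -0.90 ± 0.25 in the authors' deposited table. Under the RUNX1 inhibitor Hc, the gene for complement C5, was the 1 listed, at -0.74 ± 0.20 in the authors' deposited table. Of all genes tested, 4.93% were listed in either direction for SB431542, 5.64% for HLM006474 and 2.93% for the RUNX1 inhibitor. Beside these shares, nothing is read from the complement counts under HLM006474 and the RUNX1 inhibitor. The C3 gene and the alternative pathway genes Cfb and Cfd were in no table.

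Wfdc17 (ENSMUSG00000069792.5, chr11:83703991-83706268, plus strand) encodes a small secreted protein with the fold of protease inhibitors, also called Amwap for its expression in activated macrophages and microglia. It stood at 2.35 ± 0.19 under SB431542 and 1.38 ± 0.19 under HLM006474 in the authors' deposited tables. These are 5.11-fold and 2.61-fold rises on a mean count of 228. The difference was 0.97 on the log2 scale, with a 95% interval from 0.45 to 1.50. It was not listed for the RUNX1 inhibitor, and if tested there it lay at least 1.77 below its SB431542 value. Its estimated mean normalised count was 93.5 to 101 in vehicle, 478 to 519 under SB431542 and 244 to 265 under HLM006474. Each range reflects the unknown value under the RUNX1 inhibitor and leaves out the standard errors of the listed fold changes.

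The listed neighbours of Wfdc17 are CC chemokine genes, which encode attractants of monocytes. Of the 12 other coding genes within 200 kb, 5 were listed for SB431542 and all 5 were higher chemokine genes. Among all genes tested, 2.29% were listed as higher for SB431542. The nearest of these 5, Ccl4 and Ccl3 at 39.3 and 54.6 kb, had values of 2.89 ± 0.23 and 1.78 ± 0.18 in the authors' deposited table for SB431542. Ccl6 and Ccl9 were also listed for HLM006474, at 0.72 ± 0.18 and 1.02 ± 0.20 in the authors' deposited table, as Wfdc17 was. For comparison, Adam8 had 16 coding neighbours and Lyz2 had 5 within the same distance, and none of them was listed for any compound. Cd68 had 3 listed neighbours of 28, each listed for a different compound. In the authors' deposited tables, Tnfsfm13 stood at 0.75 for SB431542, Polr2a at 0.60 for the RUNX1 inhibitor and Efnb3 at -0.68 for HLM006474. Cfp had 2 listed neighbours of 9, Syn1 and Timp1, and both were lower under SB431542, at -0.59 and -0.98 in the authors' deposited table.

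**Figure D4:**
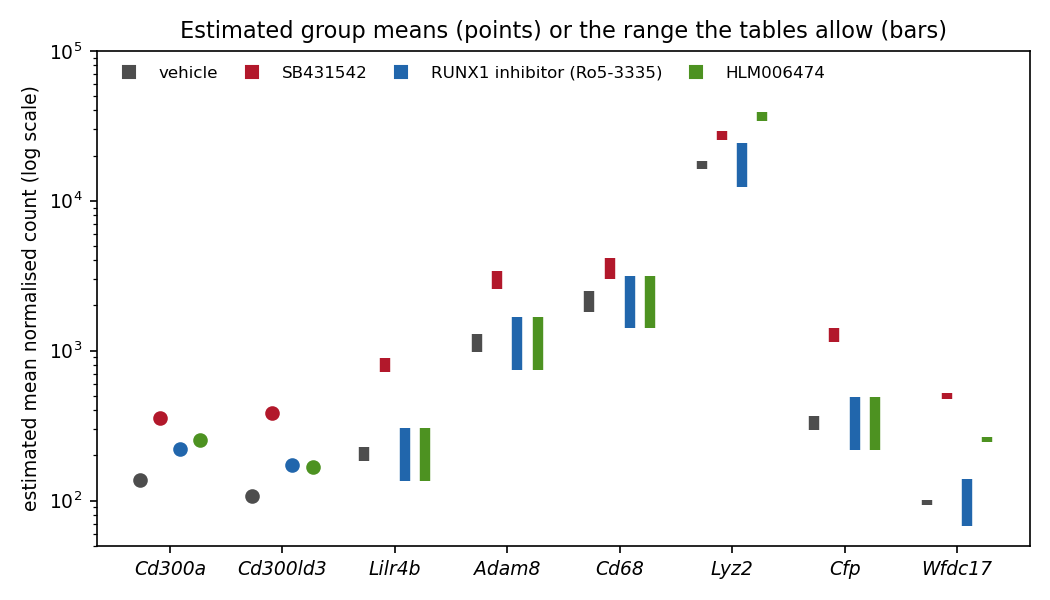
Estimated mean normalised count (vertical, log scale) of each gene in vehicle and under each compound; points are used where all 3 tables list the gene, and bars span the range allowed where a table does not. Points and bars leave out the standard errors of the listed fold changes. For Wfdc17 the SB431542 range, 478 to 519, lies above the HLM006474 range, 244 to 265, and for Cd300a the 4 estimates run from 138 to 353.

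The other secreted macrophage genes moved both ways. Of 29, 6 were higher and 2 lower under SB431542, 3 were higher and 2 lower under HLM006474, and 1 was lower under the RUNX1 inhibitor. The shares of all genes tested listed in either direction were 4.93%, 5.64% and 2.93% in the same order. The count for the RUNX1 inhibitor is near its share, so nothing is read from it. Plau, the protease urokinase, was higher under SB431542 and lower under HLM006474, at 1.16 ± 0.066 and -1.07 ± 0.077 in the authors' deposited tables. Lgals3, galectin 3, stood at 0.87 ± 0.060 in the authors' deposited table for SB431542, and Fn1, the matrix protein fibronectin, at -0.87 ± 0.060 in the same authors' deposited table. Mmp12, macrophage elastase, stood at 2.19 ± 0.27 under SB431542 and 2.09 ± 0.27 under HLM006474 in the authors' deposited tables. Spp1, osteopontin, was lower under all 3 compounds, at -0.84 ± 0.071 for SB431542, -0.63 ± 0.071 for HLM006474 and -0.74 ± 0.071 for the RUNX1 inhibitor in the authors' deposited tables.

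The genes most like each of the 4 listed for several compounds were found by the distance between log2 fold changes over the same tables. For Wfdc17 the nearest of 102 candidates over 2 tables were Ccl9, Ccl6 and Mmp12, at distances of 0.44, 0.68 and 0.72. For Lyz2 they were Lipa, Myh8 and Blvrb, at 0.17, 0.20 and 0.22. The standard error of Lyz2 was 0.18 in each of the 2 tables, so the order of these genes is not resolved. For Cd300a the nearest of 55 candidates over 3 tables were Tmem140, Fn3k and Ypel1, at 0.29, 0.47 and 0.56. For Cd300ld3 they were Trib3, Tmem140 and Fn3k, at 0.62, 0.76 and 0.83. Cd300a and Cd300ld3 were not compared with each other in this search.

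The listed markers of resident microglia had the opposite sign to the 8 genes. Of 20 microglia and macrophage markers, 9 were lower under SB431542, 5 under HLM006474 and 1 under the RUNX1 inhibitor, and none was higher under any compound. Of all genes tested, 401 of 15169 were listed as lower for SB431542, 640 of 15169 for HLM006474 and 315 of 13561 for the RUNX1 inhibitor. The shares listed in either direction were 4.93%, 5.64% and 2.93% in the same order. Tmem119, a surface protein of resident microglia, stood at -4.00 ± 0.11 under SB431542 and -1.08 ± 0.070 under HLM006474 in the authors' deposited tables. The fractalkine receptor gene Cx3cr1 stood at -2.21 ± 0.081 and the secreted microglial gene Olfml3 at -1.26 ± 0.075 in the authors' deposited table for SB431542. Aif1, a calcium-binding protein of microglia, stood at -0.89 ± 0.15 in the authors' deposited table for HLM006474. The receptor genes Fcrls and P2ry12, both markers of resident microglia, were at -0.65 ± 0.057 and -0.82 ± 0.17 in the same authors' deposited table. Gpr34, a lipid receptor gene of microglia, was the 1 marker listed for the RUNX1 inhibitor, at -0.71 ± 0.15 in the authors' deposited table. The 10 markers that stood in no table were Csf1r, Ptprc, Itgam, Adgre1, Tyrobp, Trem2, C1qb, C1qc, Sall1 and Siglech. They included genes common to macrophages, such as Csf1r, and genes of resident microglia, such as Sall1 and Siglech. None of the 8 monocyte and neutrophil markers was in a table, so their levels are not known here. Markers of other cell types were also lower. Under HLM006474, 8 of 12 oligodendrocyte lineage markers were lower, with a median of -1.07 in the authors' deposited table, beside the 5 of 20 microglia and macrophage markers. They included Sox10, the transcription factor of that lineage, at -1.10 ± 0.18, and the myelin genes Mbp and Mobp at -1.20 ± 0.35 and -1.80 ± 0.53 in the authors' deposited table. Under SB431542, Cspg4, a proteoglycan gene of oligodendrocyte precursors, was the 1 listed of those 12, at -1.04 ± 0.14 in the authors' deposited table, and none was listed for the RUNX1 inhibitor. Of 6 fibroblast and pericyte markers, the collagen gene Col1a1 was lower under SB431542 and the pericyte gene Rgs5 under HLM006474, and the authors' deposited tables give -1.08 ± 0.054 and -0.60 ± 0.21. For the RUNX1 inhibitor, 1 of 6 Müller glia markers, Rlbp1, and 1 of 6 neuron and photoreceptor markers, Tubb3, were lower, at -0.58 ± 0.18 and -0.72 ± 0.095 in the authors' deposited table. None of 6 endothelial markers was in a table. No marker on the 8 marker lists was higher under any compound. The part of a change in cell numbers or cell types in the rises of the 8 genes was not tested.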

How the data were processed

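RNA of 13 samples was compared by the authors, with CASAVA 1.8, STAR 2.7, DESeq2 1.30.1 and build GRCm38 named in the submitters' processing notes. For the read counter and its annotation, the sources used here name nothing. The 3 deposited tables each compare 1 compound with vehicle. Per the file headers they hold a mean normalised count (a signal level over libraries), a log2 fold change and its standard error, a Wald score, a p-value and an adjusted p-value. Only genes past both limits are listed, and library depth is unknown. The mean count of a gene was the same across tables, save for 1 duplicated symbol.

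The genes and the 6 gene lists and 8 marker lists were chosen with earlier results of these data known, and no new test was run. All 8 genes are named. Up to 4 genes of a list and table, by lowest adjusted p, or any where 6 or fewer were listed, could also be named, with their values in other tables. An item is not reported here. Genes near a member in the genome, and list genes named as being in no table, were named after their values were seen. The number of genes tested was taken from p over adjusted p, which gives whole ranks (within 0.02) for 80.5%, 83.6% and 81.1% of checked genes when 15169 genes are taken as tested with SB431542, 13561 with the RUNX1 inhibitor and 15169 with HLM006474. Group means solve the mean count for the fold changes over 13 samples. The means were checked in 57 genes of all 3 tables, on the 85 pairs of compounds with the larger predicted differences. In those pairs, squared errors differed between compounds by a median of 0.955 times what these means predict. The unlisted bound takes a gene's largest error from its other tables. Gene models were from GENCODE and matched 99.3% of 1592 symbols. The number tested and the variation estimate were tested on simulated data. Python 3.11.15, pandas 2.3.3 and numpy 2.4.6 were used. Protein sequences were not used here, so the planned protein comparison was not made.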

Additional observations from a re-analysis of the deposited data

How the results depend on the processing

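The counts of the 8 genes were repeated with an adjusted p under 0.01, a log2 fold change of at least 1, a mean count of at least 100, a 95% interval wholly past the fold limit, and Bonferroni adjustment. The gene list counts were repeated with the first 2 of these. For SB431542 the count of 8 stayed within 1.5 times under all 5, with 6 left at the larger fold or by the interval, without Cd68 and Lyz2. For the RUNX1 inhibitor the 2 genes became 0 at the larger fold, 0 by the interval and 1 by Bonferroni. For HLM006474 the 4 became 2, Lyz2 and Wfdc17, at the larger fold. At that fold the list genes fell from 38 to 24 for SB431542, from 5 to 0 for the RUNX1 inhibitor and from 17 to 5 for HLM006474. With the 50 nearest genes the error of Lyz2 was 3.17 times the median under SB431542. No paired analysis was possible because the tables hold no values per sample, and leaving out single replicates was not run for the same reason. Depth limits are not known from these tables.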
